A study of Sus scrofa with 6 samples.

Results

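NCAM1, UCHL1, THY1, MAP2, NPY and BDNF are 6 genes commonly used to describe neurons, and all 6 gave a signal in OBGF400, a line of porcine olfactory bulb neuroblast origin. They were chosen by their measured signals in this same comparison, as genes with a clear level in OBGF400 and a low one in PK15, so their levels are given as a description and carry no test. All probe sets annotated with 1 of these symbols alone were taken, which gave 13 of the 23999 probe sets tested and 6 of the 6765 named genes. OBGF400 was compared with PK15, an established pig kidney line described in the labels as epithelial and non-neuronal, on Affymetrix porcine arrays. Both lines were untreated and grown in medium with 10% bovine calf serum, but in different base media, and the PK15 medium also held amphotericin B. For each line, RNA of 9 cultures was combined into 3 pools with 1 array each, so each replicate pools several cultures, each group is a single line, and line and medium cannot be told apart.

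These genes stand for different parts of a neuron. NCAM1 and THY1 are adhesion proteins of the immunoglobulin superfamily at the cell surface, and THY1 is also a common marker of fibroblasts and other mesenchymal cells. UCHL1 is a ubiquitin hydrolase that is very abundant in neurons, and MAP2 binds and stabilises microtubules in dendrites. NPY and BDNF are secreted, NPY as a peptide transmitter of many interneurons, including those of the olfactory bulb, and BDNF as a neurotrophin that supports survival and synapses through the receptor TrkB. In a bulk sample, fewer cells that express a gene and less RNA per cell cannot be told apart.

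Signals are the deposited log2 values, 1 per probe set and array, and their lowest value of 2.13 is called the floor; a line is at the floor where all 3 arrays lie within 0.1 of it. Between 25.85% and 27.31% of the tested probe sets lay at the floor on an array. Arrays of a line correlated at 0.996 to 0.998 over probe sets, and arrays of different lines at 0.86 to 0.865, values which describe the arrays only. The number of arrays limits the precision.

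Of the 13 probe sets, 12 were higher on every OBGF400 array than on every PK15 array, an ordering met by 24.4% of all tested probe sets. The same 12 differed by at least 3 log2 units (8-fold) between the line means, as did 4.32% of all tested probe sets. Since these signals chose the genes, nothing is read from either share. The median difference over the 13 probe sets was 5.65, against 0 over all tested probe sets. The exception was 1 of 2 NPY probe sets, which lay at the floor on all 6 arrays.

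**Figure D1:**
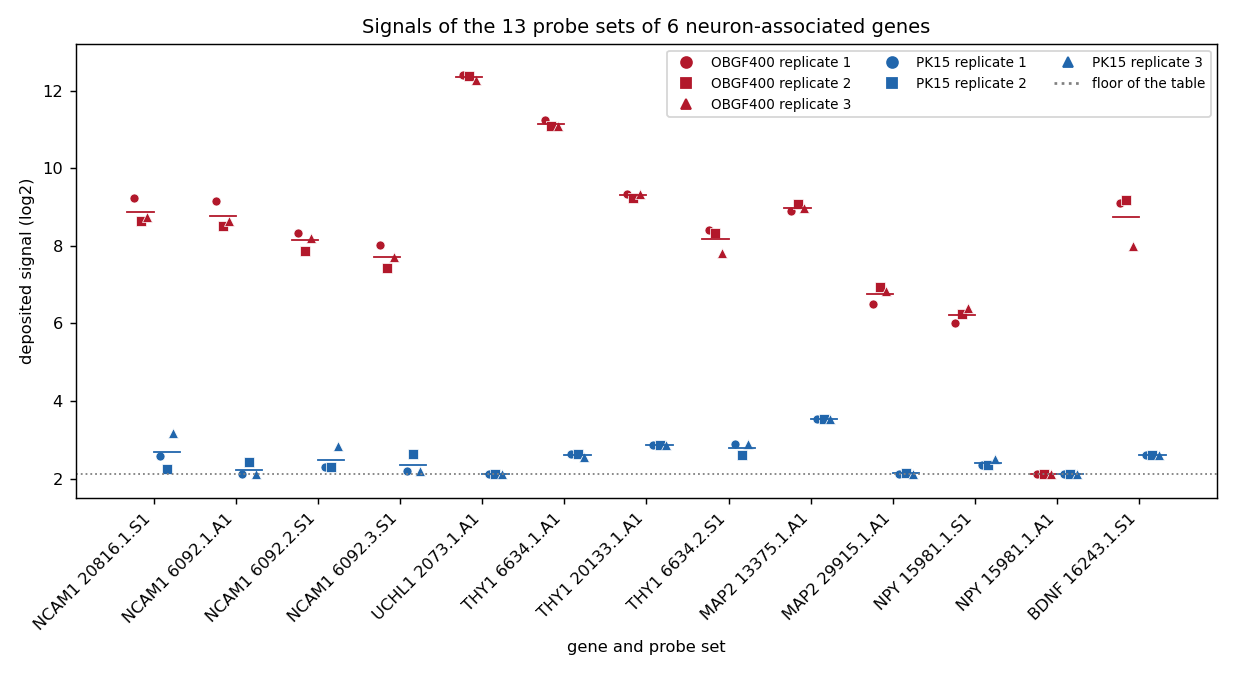
The y axis is the deposited log2 signal and the x axis the 13 probe sets of the 6 genes; each point is 1 array, each short line the mean of 3 arrays of a line, and the dotted line the floor at 2.13. In 12 probe sets the OBGF400 arrays lie above the PK15 arrays without overlap, and in the second NPY probe set all 6 arrays lie at the floor.

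NCAM1 was measured by 4 probe sets. The brightest in OBGF400 read 9.24, 8.64 and 8.74 in OBGF400 replicates 1 to 3 and 2.59, 2.26 and 3.19 in PK15, or 8.87 ± 0.33 against 2.68 ± 0.47 (SD, n = 3). It was the one probe set of all 13 in which no pair of PK15 arrays gave the same value within 0.02. The other NCAM1 probe sets had OBGF400 means of 8.77, 8.14 and 7.71, and PK15 means of 2.23, 2.49 and 2.34. The 4 differences lay between 5.37 and 6.54, a range of 1.17, so the NCAM1 probe sets gave like answers. In all 4, replicate 1 was the highest OBGF400 array and replicate 2 the lowest. The probe sets read the same RNA, so this shared order is 1 observation on the pools and not 4.

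THY1 was measured by 3 probe sets, which differed more among themselves. The brightest read 11.25, 11.10 and 11.09 in OBGF400 and 2.65, 2.65 and 2.55 in PK15, a difference of 8.53 between 11.15 ± 0.09 and 2.61 ± 0.06 (SD, n = 3). The next read 9.34, 9.24 and 9.34 against 2.88, 2.87 and 2.87, a difference of 6.43. The lowest difference, 5.39, came from the dimmest, at 8.41, 8.32 and 7.81 against 2.89, 2.60 and 2.89. All 3 placed every OBGF400 array above every PK15 array, but their differences spanned 3.15 log2 units. This is close to the median span of 3.29 among the 352 genes that had several probe sets and at least 1 difference of 3 or more in size; over all 2261 genes with several probe sets, the median span was 0.62.

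UCHL1 had 1 probe set. It read 12.39, 12.37 and 12.26 in OBGF400, a mean of 12.34 ± 0.07 (SD, n = 3), and 2.13 on each PK15 array, which is the floor. The difference of 10.21 is therefore set on one side by the floor of the table and not by a measured PK15 level.

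MAP2 was measured by 2 probe sets. The brighter read 8.91, 9.08 and 8.97 in OBGF400 and 3.54, 3.55 and 3.55 in PK15, or 8.99 ± 0.09 against 3.55 ± 0.01 (SD, n = 3). The dimmer read 6.50, 6.93 and 6.83 in OBGF400 and lay at the floor in PK15, at 2.13, 2.15 and 2.13. The differences were 5.44 and 4.62, a range of 0.82. In both, replicate 2 was the highest OBGF400 array and replicate 1 the lowest, the reverse of the order in NCAM1 at both ends.

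NPY gave opposite readings on its 2 probe sets, which the annotation ties to the same source sequence. The first, whose identifier ends in S1_at, read 6.02, 6.25 and 6.39 in OBGF400 and 2.35, 2.35 and 2.51 in PK15, or 6.22 ± 0.19 against 2.40 ± 0.09 (SD, n = 3), a difference of 3.82. The second, whose identifier ends in A1_at, lay at 2.13 on all 6 arrays. The NPY signal in OBGF400 thus rests on 1 probe set, and which of the pair reads the NPY transcript was not tested. The meaning of the letter that differs is not given in the sources used here. Probe sets with the letter A gave signals for UCHL1, THY1, MAP2 and NCAM1. Those genes were chosen for their signals, so nothing is read from this about the letter.

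BDNF had 1 probe set and the widest spread between pools. It read 9.10, 9.17 and 7.99 in OBGF400, or 8.75 ± 0.66 (SD, n = 3), and 2.60 on each PK15 array. OBGF400 replicate 3 lay 1.18 below replicate 2, and the difference of 6.16 became 6.54 without replicate 3. An identical value on all PK15 arrays above the floor gives an SD of 0, which is no measure of precision.

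Low PK15 values repeated in most of these probe sets. In 5 of the 13 all 3 PK15 arrays gave 1 value within 0.02, in 7 a pair of them did, and in 1 none did. PK15 lay at the floor in 3 of the 13, those of UCHL1, the dimmer MAP2 and the second NPY probe set. PK15 means ran from 2.13 to 3.55, and no single PK15 value was above 3.55. The differences of all 6 genes are therefore measured against the low end of the table. With 32 added to the linear signals, which damps low values, the differences of the brightest probe sets fell from 10.21 to 7.16 for UCHL1, 8.53 to 5.91 for THY1, 6.20 to 3.70 for NCAM1, 6.16 to 3.61 for BDNF, 5.44 to 3.63 for MAP2 and 3.82 to 1.52 for NPY.

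The spread between OBGF400 pools was set beside that of all tested probe sets with an OBGF400 mean within 0.5 of the member's. Of the 12 probe sets above the floor, 2 had an SD under the median of such probe sets, 1 of THY1 and the brighter of MAP2. BDNF, with an SD of 0.663 against a median of 0.103, was more variable than 99.8% of 1946 probe sets of like mean. The 4 NCAM1 probe sets had SDs of 0.232 to 0.344, above those of 88.8% to 97.5% of like probe sets. UCHL1, at 0.069 against 0.064, and NPY, at 0.187 against 0.173, lay near the middle, above 54.7% and 54.3% of like probe sets.

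**Figure D2:**
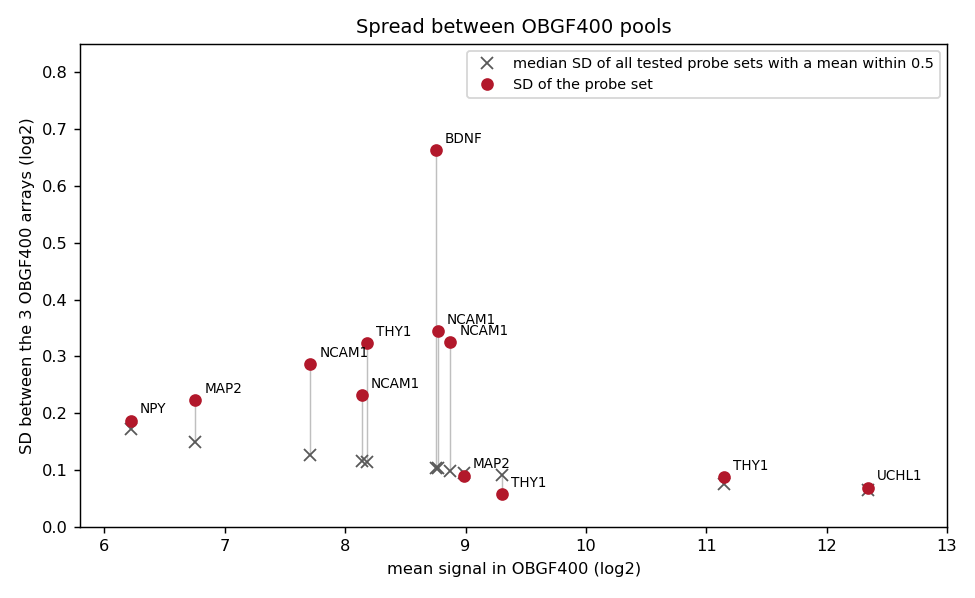
Each red point is 1 of the 12 probe sets above the floor, with its mean log2 signal in OBGF400 on the x axis and its SD between the 3 arrays on the y axis; the cross on the same vertical line is the median SD of all tested probe sets with a mean within 0.5. BDNF lies farthest above its cross, at 0.663 against 0.103, and UCHL1 and NPY lie close to theirs.

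**Figure D3:**
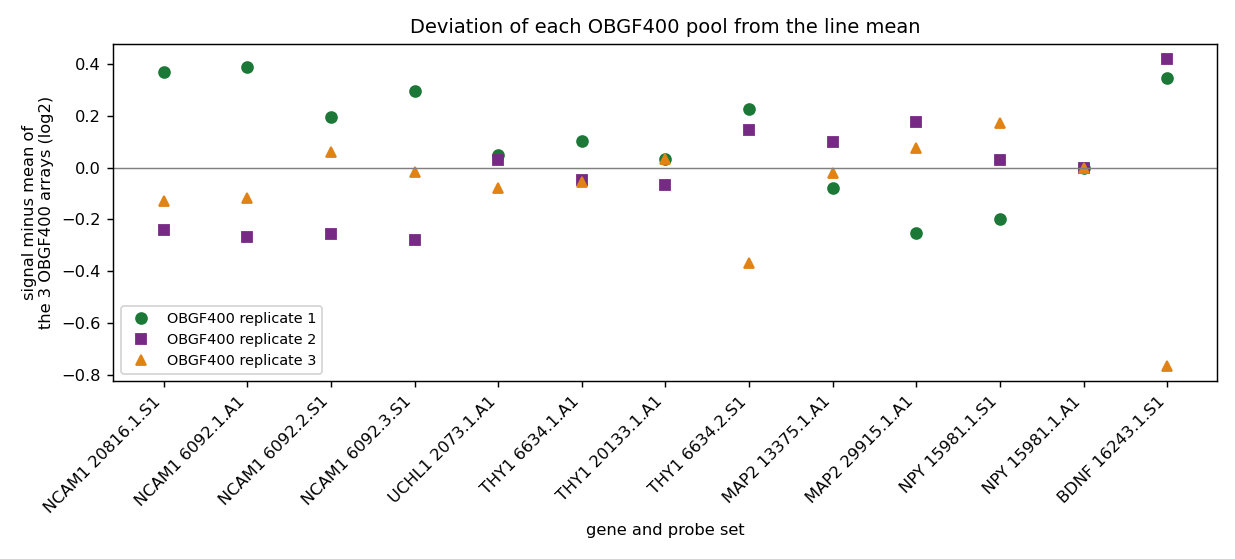
The y axis is each OBGF400 array's log2 signal minus the mean of the 3 OBGF400 arrays, for the 13 probe sets on the x axis. Replicate 1 is the highest in all 4 NCAM1 probe sets and the lowest in both MAP2 probe sets, and replicate 3 is at -0.765 in BDNF.

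The nearest patterns were sought over the 6 arrays, by the Euclidean distance between the array values of 2 genes after each was centred on its own mean, among 6561 other named genes. This measure is dominated by the size of the difference between the lines. For UCHL1 the nearest were the integrin subunit ITGA8 (distance 0.15, difference 10.29) and PRELP (0.33, 10.45), a small leucine-rich proteoglycan. For THY1 they were ENPP1 (0.17, 8.55) and RFTN1 (0.22, 8.52), and for NCAM1 the transcription factor GATA3 (0.47, 6.05) and PDLIM4 (0.51, 5.90). MAP2 lay nearest to the endothelin receptor EDNRA (0.16, 5.37) and to RCAN1 (0.16, 5.38), and NPY to the transcription factor PAX3 (0.14, 3.82) and to ICAM1 (0.24, 3.86). BDNF had the farthest neighbours, VGLL3 (0.60, 6.03) and FXYD7 (0.73, 5.98).

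Other genes of each member's pathway were compared between the lines with limma over 6765 genes, each gene by its brightest probe set, and called at an adjusted p under 0.05. Of all genes, 23.9% were called higher and 36.8% lower in OBGF400, with a median difference of -0.002. Over the 6 lists together, 79 genes were measured, of which 35 were called higher, 16 lower and 28 not called, with 12 at the floor in both lines and a median difference of 0.08. The direction of small differences depended on the scaling. With arrays scaled on the hybridization controls 62 were higher and 8 lower, and with scaling on the poly-A controls of dap and thr 23 were higher and 44 lower. Among all called genes, the share that was higher was 39.4% as deposited, 78.1% with the first scaling and 12.8% with the second, and the median difference of all genes moved to 0.82 and -0.86.

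For NCAM1, 5 of 9 measured partners were called higher in OBGF400 and 0 lower by limma, also 0 lower at an unadjusted p under 0.05, with a median of 0.78. FYN, a kinase that signals from NCAM1 and from THY1, was at 10.73 ± 0.11 against 5.27 ± 0.68 (SD, n = 3), higher by 5.47 (adjusted p = 0.000262, limma). The fibroblast growth factor receptors FGFR2 and FGFR1, which NCAM1 can engage, were higher by 5.02 (adjusted p = 0.000275) and 2.22 (adjusted p = 0.000284). ST8SIA4, one of the enzymes that add polysialic acid to NCAM1, gave no clear level in either line, with the floor on all OBGF400 arrays and 2.20 ± 0.09 in PK15. The growth cone protein GAP43 was at the floor in both lines. ST8SIA2, the other polysialyltransferase, was not analysed here. With poly-A control scaling this list gave 3 genes higher and 4 lower.

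Of 16 measured genes listed with THY1, 11 were called higher and 2 lower, and the median difference was 1.08. Beside FYN, the largest were ENG, a co-receptor of the TGF-beta family (6.92 ± 0.32 against 3.45 ± 0.46, SD, n = 3), and ADGRE5, a leukocyte adhesion receptor that binds THY1 (10.07 ± 0.09 against 6.89 ± 0.20), higher by 3.48 and 3.18 (adjusted p = 0.000585 and 4.1e-05, limma). The syndecan SDC4, a heparan sulfate receptor that acts with integrins, was lower by 1.12 (adjusted p = 0.000276), a call lost with hybridization control scaling. The integrin subunits of this list, named here after their values were seen, did not all go the same way. ITGA5 was higher by 2.99, ITGB1 by 1.89 and ITGB5 by 1.14 (adjusted p = 0.000142, 4.56e-05 and 0.00323, limma). The ITGB5 call was lost with poly-A control scaling. ITGAM and ITGB2 lay at the floor in both lines. ITGAV and ITGB3, which form an integrin that binds THY1, went opposite ways. ITGAV was higher by 2.40 (adjusted p = 0.00199) and ITGB3 differed by -0.78 (adjusted p = 0.000435), which became 0.04 with hybridization control scaling. Poly-A control scaling gave 7 of these 16 genes higher and 6 lower.

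Of 10 measured UCHL1 relatives and ubiquitin supply genes, 2 were called higher and 5 lower, with 3 not called and a median of -0.32, beside 23.9% higher and 36.8% lower over all genes. The closest relative, UCHL3, read 10.74, 10.79 and 10.74 in OBGF400 and 12.13, 12.23 and 11.95 in PK15. UCHL3 was thus present in both lines and in OBGF400 was lower by 1.35 (adjusted p = 0.000168, limma), while UCHL1 was at the floor in PK15. With hybridization control scaling 5 genes of this list were higher and 1 lower, and with poly-A control scaling 0 were higher and 8 lower.

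Microtubule genes related to MAP2 were mixed, with 5 of 17 higher, 3 lower and a median of 0.05. MAP1A, another microtubule-associated protein of neurons, was at 9.02 ± 0.20 against 3.44 ± 0.24 (SD, n = 3), higher by 5.58 (adjusted p = 2.36e-05, limma) and called in 2 of its 3 probe sets. PRKAR2A, a regulatory subunit of the kinase that MAP2 anchors, was higher by 2.92, and the plus-end protein MAPRE1 by 1.30. The microtubule destabiliser STMN1 was lower by 1.58 and the kinase CDK5 was lower by 1.54. MARK1, a kinase that detaches such proteins from microtubules, differed by -3.05 (adjusted p = 0.0192, limma), with a PK15 SD of 1.32 and a call lost in 7 of 16 alternatives, among them the replicate block, each omission of an OBGF400 array and that of PK15 replicate 2 (adjusted p up to 0.0656). MAPT and TUBB3 were not analysed here. Control scalings gave 14 higher and 3 lower, or 3 higher and 11 lower.

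For NPY, 10 receptor and processing genes were measured. The limma fit called 4 higher and 2 lower, and their median difference was 0. NPY1R, the Y1 receptor, read 8.00, 8.31 and 8.17 in OBGF400 and 2.30, 2.40 and 2.27 in PK15, a difference of 5.83 (adjusted p = 3.54e-06, limma). NPY2R, the Y2 receptor, lay at the floor in both lines, and NPY5R was not analysed here. PAM, which makes the C-terminal amide that NPY needs for activity, was at 10.69 ± 0.11 against 7.80 ± 0.14 (SD, n = 3), higher by 2.89 (adjusted p = 3.18e-05). DPP4, the peptidase that trims NPY at its N terminus, was lower by 5.87 (adjusted p = 2.15e-06), and its relative FAP was higher by 6.51 (adjusted p = 2.19e-06). The prohormone convertases, named here after their values were seen, gave no clear level in OBGF400, with PCSK1 at the floor in both lines and PCSK2 at 3.44 against 3.52.

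For BDNF, 10 of 19 neurotrophin signalling genes were called higher and 4 lower, and the median difference was 1.03. BEX3, an adaptor of the p75 neurotrophin receptor, was at 10.01 ± 0.08 against the floor in PK15, a difference of 7.87 (adjusted p = 2.11e-07, limma) found in 1 of its 2 probe sets. Enzymes that can cut proBDNF or activate such enzymes moved both ways. MMP2 was higher by 11.19 and MMP3 by 8.02, the latter in 2 of 4 probe sets, whereas MMP7 was lower by 7.06. The tissue plasminogen activator PLAT was lower by 5.15 and the convertase PCSK7 was lower by 1.41. PLAT read 6.98, 6.14 and 6.36 in OBGF400 and 11.62, 11.66 and 11.64 in PK15. The receptor NTRK3, which binds NT-3, was at the floor in both lines and the neurotrophin NTF3 at 2.19 against 2.21, both named here after their values were seen. The BDNF receptors NTRK2 and NGFR and the sorting receptor SORT1 were not analysed here. Poly-A control scaling gave 7 of this list higher and 9 lower.

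**Figure D4:**
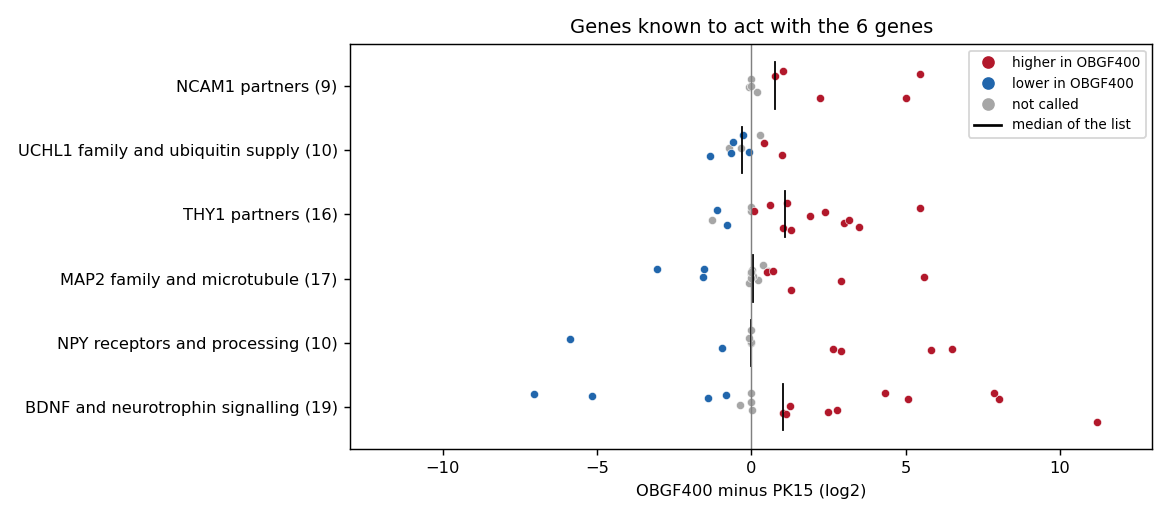
Each point is 1 gene of the 6 partner lists, with the number of measured genes in brackets; the x axis is the log2 difference, OBGF400 minus PK15, colours give the limma call at an adjusted p under 0.05, the black line is the median of the list, and the height within a list is arbitrary. Called genes lie on both sides of 0 in 5 lists, while the NCAM1 list has 5 higher and 0 lower, or 3 higher and 4 lower with poly-A control scaling.

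The labelled cell type was checked on other neuron and progenitor genes. Of 63 listed neuron and synapse genes, 4 are members and 22 others were measured. Of 39 listed progenitor and neuroblast genes, 9 were measured. The rest of both lists was not analysed here, which limits this check. Of 22 neuron and synapse genes measured beside the members, 18 lay at the floor in both lines, and over all genes 15.5% did so. Among those 18 were the neuronal enolase ENO2, the synaptic protein SNAP25, GAP43, the synapsins SYN1 and SYN2, the stathmin STMN2 and the granins CHGA and CHGB, named here after their values were seen except for ENO2, SNAP25 and GAP43. VAMP2, a vesicle protein, was higher by 0.66 (adjusted p = 0.0386, limma), a call that was absent in the fit over probe sets, lost when OBGF400 replicate 2 or 3, or replicate 1 or 3 of PK15, was left out (adjusted p up to 0.375 over the alternatives) and turned to -0.20 by poly-A control scaling. DDC, which makes dopamine from L-DOPA, was lower by 4.41 (adjusted p = 4.9e-05). Most of the other neuron genes measured thus gave no signal above the floor in OBGF400.

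Of 9 progenitor and neuroblast genes, 3 were higher, 1 lower and 5 not called, beside 23.9% higher and 36.8% lower over all genes. The homeobox factor MEIS2 read 10.34, 10.08 and 9.99 in OBGF400 and 6.67, 6.88 and 6.74 in PK15, a difference of 3.37 (adjusted p = 3.11e-05, limma) found in 1 of its 2 probe sets. ID4, an inhibitor of basic helix-loop-helix factors, was higher by 1.25 (adjusted p = 0.0112), a call lost with the replicate block and with poly-A control scaling. The filament protein VIM was at 15.14 against 15.04, a difference that poly-A control scaling turned to -0.75, and STMN1 was the lower gene. NES, SOX2, PAX6, DCX and SYP were not analysed here. With hybridization control scaling 29 of the 31 neuron and progenitor genes were higher, and with poly-A control scaling 28 were lower, since genes at the floor in both lines then take the sign of the scaling.

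Markers of other cell types moved beside the members. Limma called 21 of 24 mesenchymal and fibroblast genes higher in OBGF400 and 1 lower, and the list's median difference was 8.41. Over all genes, 23.9% were called higher and 36.8% lower. Their summed log2 level was 284.0 to 285.8 on the OBGF400 arrays and 120.6 to 123.3 on the PK15 arrays. ENG and MMP2 of this list are also counted in the THY1 and BDNF lists, respectively. The cadherin CDH11 was higher by 11.61, the smooth muscle actin ACTA2 by 11.62 and MMP2 by 11.19, while the calcium-binding S100A4 was lower by 1.99, and 0 of the 24 lay at the floor in OBGF400. The collagen COL3A1, named here after its values were seen, nevertheless gave no clear level in either line, at 2.65 against 2.58. In the epithelial list limma called 13 of 14 genes lower and 0 higher, also 0 at an unadjusted p under 0.05, with a median of -9.68 and summed levels of 34.2 to 34.7 against 154.8 to 156.0. The epithelial junction gene PERP was lower by 12.18, the keratin KRT8 was lower by 12.14 and KRT18 was lower by 11.56. PERP and KRT18 were among the 6 of the 14 that lay at the floor in OBGF400, and KRT8 read 2.63 ± 0.21 there (SD, n = 3), so the low end of the table limits the size of these differences too. THY1 and NCAM1 are also made by mesenchymal cells, and the part of such cells in the signals of the members was not tested.

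**Figure D5:**
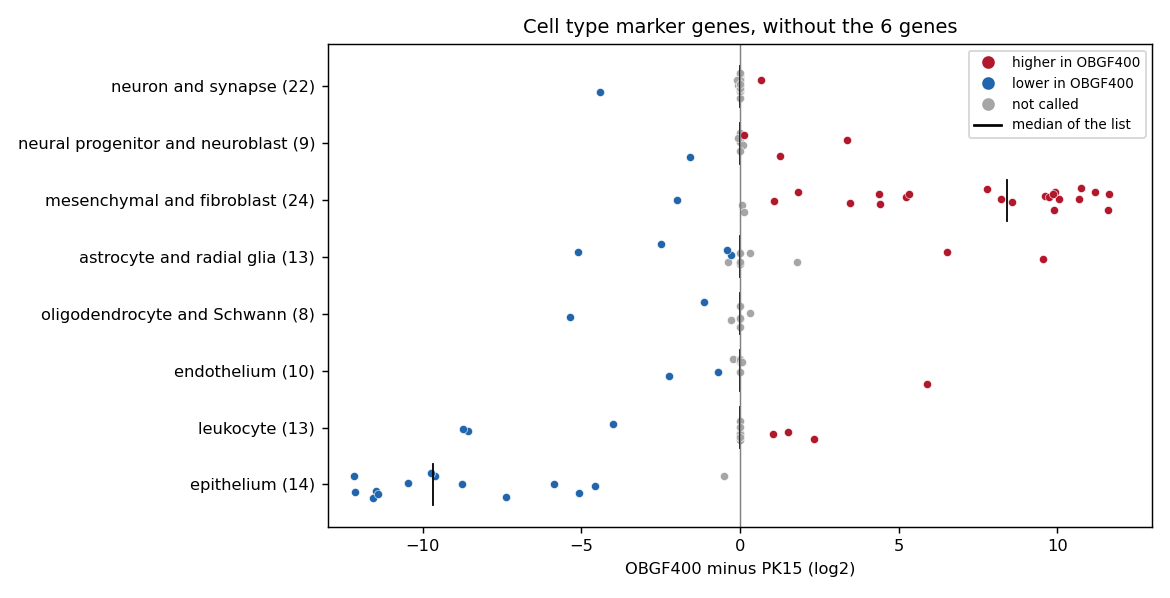
Each point is 1 marker gene other than the 6 members, in 8 lists with the number of measured genes in brackets; the x axis is the log2 difference, OBGF400 minus PK15, colours give the limma call and the black line the median of the list, with many points at 0 lying over each other. Most neuron and synapse genes lie at 0, as 18 of 22 are at the floor in both lines, while 21 of 24 mesenchymal genes are higher and 13 of 14 epithelial genes lower; values at 0 take the sign of any control scaling.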

How the data were processed

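Expression was measured on 6 Affymetrix porcine arrays, 3 pools a line, from 8 µg of RNA each. The values the authors deposited are log2 signals, made with the package affy per the submitters' processing notes. For background correction, summarisation, normalization and genome build, the settings were not given in the sources used here, so no coordinates are printed. Of 24123 probe sets, 124 controls were left out and 23999 tested. Symbols came from the platform annotation, in which 10069 tested probe sets had 1 symbol, 198 several and 13732 none.

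The members and gene lists were chosen with earlier results of these data known. Lines were compared with limma 3.58.1 (lmFit, eBayes, two-sided) in R 4.3.3 over all probe sets, and over 6765 genes by the probe set with the highest mean, with Benjamini-Hochberg adjustment at 0.05. P-values set the difference between the 2 lines against the spread between pools of a line. They carry nothing on variation between lines of a kind, and members carry none. The script was tested on simulated data. It recovered 61% of 100 changes of 1 log2 unit and 94% of 100 changes of 3, with 20 false calls over 23999 probe sets. Dim probe sets were not among those changed, so recovery was not tested for them. Tables were made in Python 3.11.15.

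From each partner list, called genes with a difference of at least 1 were named, up to 3 each way, with fixed receptors and markers, from marker lists up to 3 called genes each way, and for each member the 2 nearest genes. Alternatives covered scaling, a filter on dim probe sets, an added 32, the variance model, the threshold, the mean of probe sets, the replicate block and leaving out each array.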

Additional observations from a re-analysis of the deposited data

How the results depend on the processing

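By their brightest probe sets, the 6 members kept a higher level in OBGF400 under every scaling and omission tried. Since these signals chose the members, nothing is read from this. The differences of NCAM1, UCHL1, THY1, MAP2, NPY and BDNF were 7.02, 11.03, 9.35, 6.26, 4.64 and 6.98 with scaling on the hybridization controls (27 control probe sets, which differed by -0.82 between the lines), 5.34, 9.35, 7.68, 4.59, 2.96 and 5.30 with scaling on the poly-A controls of dap and thr (18 probe sets, 0.85), and 3.70, 7.16, 5.91, 3.63, 1.52 and 3.61 with 32 added to the linear signal. Median centring gave 10.13 for UCHL1, 8.45 for THY1 and 5.36 for MAP2. The second NPY probe set, at the floor on all arrays, took the sign of the scaling. It moved to 0.82 with the hybridization controls and -0.85 with the poly-A controls. Leaving out 1 array moved no member by more than BDNF, which ranged from 5.95 to 6.54. The number of probe sets differing, 10060 as deposited (4846 higher, 5214 lower), was 19309 with median centring (5068 higher, 14241 lower), 21558 with hybridization control scaling (18578 higher) and 21593 with poly-A control scaling (2763 higher), and 8661 with the replicate block. Partner genes differing numbered 51 as deposited, 44 to 70 over the alternatives and 46 with the replicate block. Neuron and progenitor genes differing numbered 6, and 31 and 29 with the control scalings. Deviations of same-numbered pools of the lines correlated at 0.007 to 0.039, and those of differently numbered pools at -0.042 to 0.028. No clear pairing by number was seen, but values this near 0 cannot exclude a shared day or batch, which was not tested. Low signals, at or not far above the floor, limit the size of each member's difference on the PK15 side and of many lower genes on the OBGF400 side.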

Other observations

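Other glial, vascular and blood markers were mixed, with genes on both sides and others at the floor. Over all genes, 23.9% were called higher and 36.8% lower, and 15.5% lay at the floor in both lines. Of 13 astrocyte and radial glia genes, 4 lay at the floor in both lines, among them the glutamate transporters SLC1A2 and SLC1A3. Limma called 2 higher, the matrix glycoprotein TNC by 9.54 and the gap junction gene GJA1 by 6.51, and 4 lower. Of the lower genes, the astrocyte filament gene GFAP read 2.64 ± 0.30 against 7.74 ± 0.27 (SD, n = 3), a difference of -5.10 (adjusted p = 6.58e-05, limma). GFAP was called lower in 1 of its 4 probe sets, and its difference ran from -5.96 to -1.57 over the alternatives. HES1, a target of Notch signalling, was lower by 2.49, and CLU, which was bright in both lines at 13.59 against 14.01, differed by -0.42, or 0.41 with hybridization control scaling. Of 8 oligodendrocyte and Schwann cell genes, limma called 0 higher, also 0 at an unadjusted p under 0.05, and 2 lower, the myelin genes MBP at -5.36 and CNP at -1.14, the latter call lost with hybridization control scaling. MBP was called lower in 2 of its 4 probe sets and CNP in 1 of its 2.

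Of 10 endothelial genes, 6 lay at the floor in OBGF400, 5 of them in both lines. The transcription factor ERG was higher by 5.90, the cadherin CDH5 was lower by 2.24, and FLT1 differed by -0.70, a call lost in 5 of 16 alternatives, among them the omission of OBGF400 replicate 1 or of PK15 replicate 2 or 3 (adjusted p up to 0.513 over the alternatives), and turned to 0.13 by hybridization control scaling. CDH5 was called lower in 1 of its 2 probe sets and FLT1 in 1 of its 3. Of 13 leukocyte genes, 8 lay at the floor in OBGF400, 7 of them in both lines. Limma called 3 higher and 3 lower, beside 23.9% higher and 36.8% lower over all genes. TYROBP was higher by 2.34, CD14 was higher by 1.03 and CD3E read 5.50 against 3.99, the CD14 call being lost with poly-A control scaling and without OBGF400 replicate 1 (adjusted p up to 0.435 over the alternatives). The larger differences in this list were the lower ones, with LAPTM5 at 2.18 against 10.94, AIF1 at 2.15 against 10.72 and SPI1 at 2.47 against 6.48. They came to -8.75, -8.58 and -4.02, and their size is limited by the low end of the table. LAPTM5 was called lower, and CD14 higher, in 1 of 2 probe sets each. Genes at the floor in both lines take the sign of either control scaling.

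The contrast between the NPY probe sets was set beside all pairs whose identifiers end in A1_at and S1_at and are otherwise the same. The NPY pair itself is included in the counts. There were 379 such pairs on the array. In 97 of them (25.6%) the A probe set lay at the floor on all 6 arrays and the S probe set did not, in 28 the reverse held, and in 206 both lay at the floor. In 25 pairs the S probe set was at least 3 log2 units higher in OBGF400, and in 17 of those 25 the A probe set lay at the floor on all arrays and in 0 it was likewise higher by 3.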
